A study of Mus musculus with 7 samples.

Results

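The 10 genes described here break down arginine, carry urea and make or degrade polyamines: Arg1, Arg2, Slc14a1, Odc1, Oaz1, Azin1, Amd1, Srm, Sms and Sat1. They were chosen by symbol from the 24964 genes listed, because Arg1 and Slc14a1 are among the largest rises between the genotypes. The values of those 2 genes in this contrast are therefore a description, given without a test. The whole uterus was taken from 12-week-old mice in diestrus, and its RNA was sequenced. There were 3 control libraries (genotype Pgrcre/+, numbered 1, 2 and 4) and 4 libraries with the genotype Pgrcre/+Foxl2LsL/+ (numbered 1 to 4, called Foxl2-LSL here). All 7 libraries thus carry 1 Pgr-Cre allele, which expresses Cre recombinase from the progesterone receptor gene. The labels do not say whether animals were pooled or whether libraries came from separate animals, so p-values measure the spread between these libraries, which may be technical.

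Arginase splits arginine into urea and ornithine. Arg1 encodes the cytosolic enzyme and Arg2 the mitochondrial one, and Slc14a1 encodes a channel-like protein through which urea crosses cell membranes. Ornithine decarboxylase (Odc1) turns ornithine into putrescine, and spermidine synthase (Srm) and spermine synthase (Sms) extend it with aminopropyl groups that come from decarboxylated S-adenosylmethionine, the product of Amd1. Antizyme (Oaz1) sends ornithine decarboxylase to the proteasome, the antizyme inhibitor (Azin1) binds antizyme in its place, and Sat1 acetylates spermidine and spermine for export or oxidation. Polyamine synthesis accompanies growth and cell division in many tissues, and in the rodent uterus ornithine decarboxylase is known for its response to steroid hormones and to implantation.

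The table gives FPKM, the fragments counted on a gene scaled to the length of the gene and to the fragments of the library. Whole fragments could be recovered from it, with 47800000 to 67300000 fragments per library in the denominator. Foxl2 itself was no higher in the Foxl2-LSL libraries (controls 14.4 ± 4.32 FPKM, SD, n = 3, against 14.7 ± 1.86 FPKM, SD, n = 4; adjusted p = 0.818 in limma), so directions below hold for the libraries as labelled. The uterine homeobox genes Hoxa10 and Hoxa11 were present in all 7 libraries, at means of 77.9 and 51.9 FPKM in controls and 25.4 and 12.0 FPKM in Foxl2-LSL libraries. In a whole organ, fewer cells of a type and less RNA per cell cannot be told apart. Genes were tested with limma, and each p was adjusted over all tested genes by the method of Benjamini and Hochberg. Of the 13334 genes tested across the table, 40.6% passed an adjusted p of 0.05 (16.7% higher and 23.9% lower in Foxl2-LSL libraries), and the groups did not overlap in 47.6%.

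Amd1 and Oaz1 were listed at or near 0 in this table, and both have near-identical copies elsewhere in the mouse genome. Amd1 (chromosome 10, 40287458 to 40302186, minus strand, GRCm38, GENCODE M21) has a close relative in Amd2 on the same chromosome. Oaz1 (chromosome 10, 80826656 to 80829290, plus strand) has a processed pseudogene, Oaz1-ps, on chromosome 17. The central 60 bases of each coding sequence are shown beside the best match in the copy, in lower case throughout because no base differs within either pair:

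Oaz1: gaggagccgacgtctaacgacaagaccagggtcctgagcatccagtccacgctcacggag

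Oaz1-ps: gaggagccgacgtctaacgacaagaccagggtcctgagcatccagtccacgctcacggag

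Amd1: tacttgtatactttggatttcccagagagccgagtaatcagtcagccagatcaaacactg

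Amd2: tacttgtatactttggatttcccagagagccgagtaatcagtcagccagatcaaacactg

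Of all stretches of 100 bases in the longest coding transcript of Amd1, 76.4% occurred unchanged in another gene, and for Oaz1 the share was 41.8%. Amd1 was listed at 0 FPKM in 6 libraries and at 0.005 FPKM, 1 fragment, in control 2. Amd2 was listed at 0 in all 7. Oaz1 was listed at 0.367, 0.18 and 0.241 FPKM in controls 1, 2 and 4, and Foxl2-LSL libraries 1 to 4 had 0.185, 0.175, 0.169 and 0.159 FPKM, on 9 to 25 fragments, although antizyme is made in nearly all cells. How fragments that match several places were counted is not stated, and whether it set these values was not tested. Genes with a larger share of common windows than Oaz1 were listed well above 0, such as Ahcy (72.1%) and Dohh (65.0%). The share counts any other annotated gene, also one that overlaps at the same place, so it does not say how fragments were counted. Neither gene passed the filter of a mean FPKM of at least 1, and neither is compared between the groups. Oaz2, a related antizyme gene, had a mean of 51.2 ± 6.31 FPKM in controls (SD, n = 3) and of 45.4 ± 2.16 FPKM in the other group (SD, n = 4), with overlapping values (adjusted p = 0.187 in limma).

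**Figure D1:**
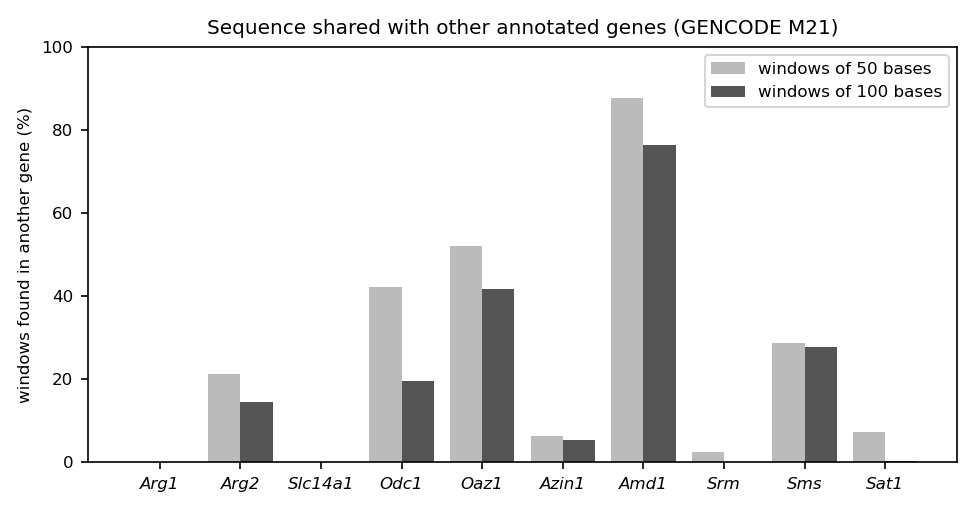
Bars show the percentage of windows of 50 bases (light) and 100 bases (dark) in the longest coding transcript of each gene that occur in a transcript of another annotated gene, on either strand. Amd1 (76.4% at 100 bases) and Oaz1 (41.8%) share most, and Arg1 and Slc14a1 share none.

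The same measure bears on the other 8 genes. At 100 bases no window of Arg1, Slc14a1 or Srm occurred elsewhere, and 0.376% of those of Sat1 did. The shares were 5.45% for Azin1, 14.4% for Arg2, 19.6% for Odc1 and 27.7% for Sms. Arg2 shares its windows mainly with Vti1b, a neighbouring gene, and Sms shares them with the pseudogene Sms-ps. Whether the shared stretches lowered the listed levels of Odc1 and Sms was not tested. Without stated strand use the fragments of Arg2 and Vti1b cannot be told apart where the genes overlap.

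Arg1 (chromosome 10, 24915221 to 24927484, minus strand) was close to silent in control uterus and present at widely different levels in the Foxl2-LSL libraries. It stood at 1.153, 0.977 and 0.629 FPKM in controls 1, 2 and 4, on 61 to 108 fragments. Foxl2-LSL libraries 1 to 4 had 123, 4.41, 10.001 and 54.9 FPKM. All 4 values lay above all 3 controls, and the lowest was 3.82 times the highest control. Within the Foxl2-LSL group the highest library was 27.9 times the lowest, and the SD of 54.8 FPKM exceeded the mean of 48.1 FPKM. The log2 fold change, taken here and below on log2(FPKM + 1) as Foxl2-LSL minus control, was 3.73 (SE 0.99). Arg1 passed the filter on low values through the Foxl2-LSL libraries only.

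Slc14a1 (chromosome 18, 78100091 to 78142119, minus strand) was higher too, and evenly so. It stood at 7.53, 17.2 and 5.07 FPKM in controls 1, 2 and 4, whereas Foxl2-LSL libraries 1 to 4 had 107, 127, 111 and 106 FPKM. The lowest Foxl2-LSL library was 6.19 times the highest control. Here the controls varied more, by 3.39-fold from lowest to highest, against 1.199-fold in the Foxl2-LSL libraries. The log2 fold change was 3.54 (SE 0.32). The ratio of group means was 11.4, against 52.3 for Arg1, whose log2 value is held down by the added 1. The order of the Foxl2-LSL libraries differed between these genes: library 2, the lowest for Arg1, was the highest for Slc14a1.

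Arg2 (chromosome 12, 79130777 to 79156301, plus strand) did not follow Arg1. It stood at 3.71, 6.53 and 13.6 FPKM in controls, whereas Foxl2-LSL libraries 1 to 4 had 5.08, 5.17, 4.27 and 2.81 FPKM. The groups overlapped, and control 4 was far above the rest. The log2 fold change was -0.62 (SE 0.36; adjusted p = 0.205 in limma). Without control 4 it was -0.18 (adjusted p = 0.584 in limma), and without control 1 it was -1.002 (adjusted p = 0.0385 in limma), so single controls decide this value. The ratio of Arg1 to Arg2 within a library, which does not depend on scaling between libraries, was 0.311, 0.150 and 0.0462 in controls. It was 24.2, 0.852, 2.34 and 19.6 in Foxl2-LSL libraries 1 to 4. Arg2 was thus the more abundant arginase transcript per length in all controls and in Foxl2-LSL 2, and Arg1 in the other 3.

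**Figure D2:**
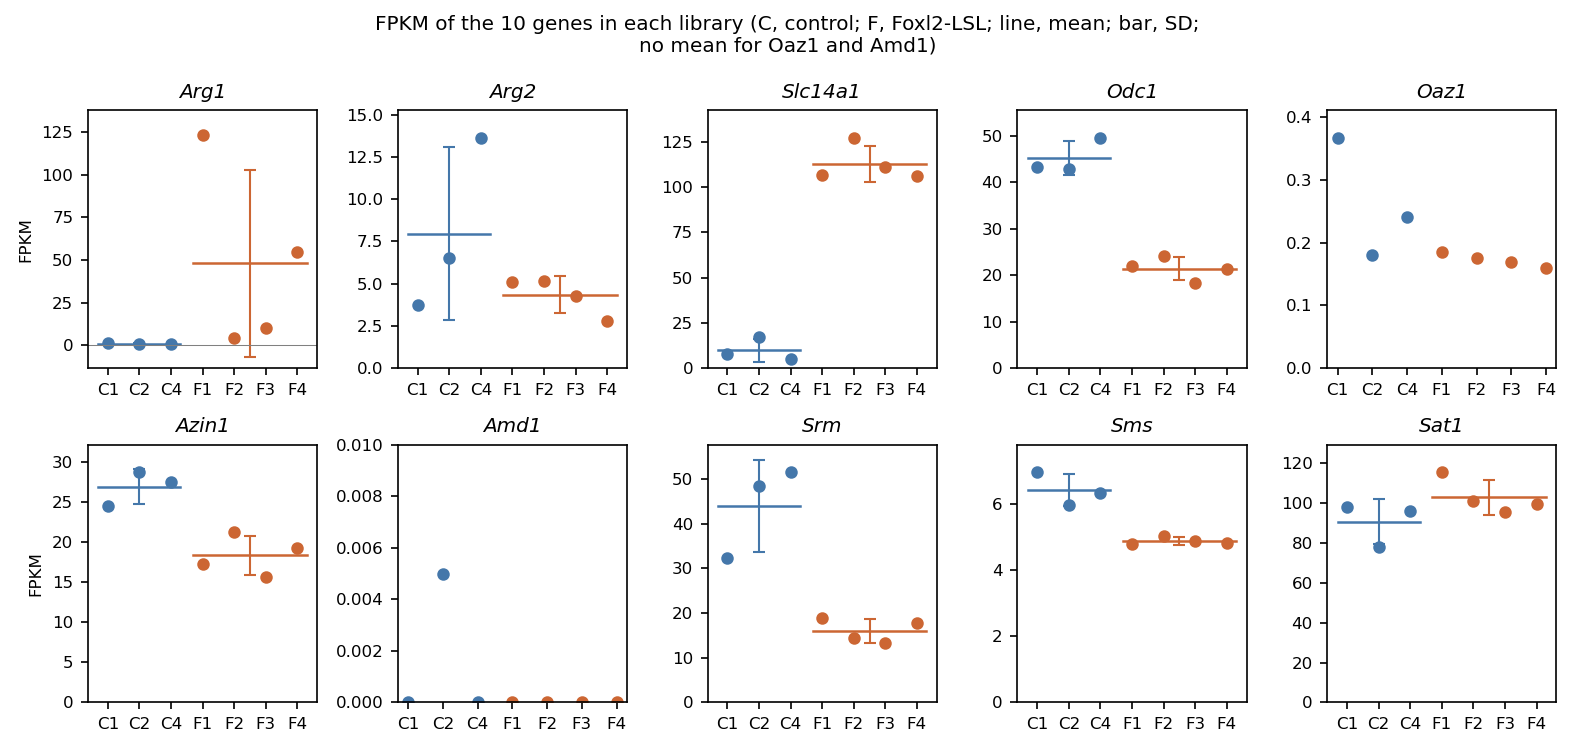
Points show FPKM of each gene in controls 1, 2 and 4 (C1, C2, C4) and Foxl2-LSL libraries 1 to 4 (F1 to F4). Lines show group means and bars the SD, except for Oaz1 and Amd1. Each panel has its own axis, from 0 in all but Arg1, where the SD bar reaches below 0. Arg1 spreads from 4.41 to 123 FPKM in the Foxl2-LSL group, Slc14a1 is tight at 106 to 127 FPKM, and Odc1, Azin1, Srm and Sms are lower in every Foxl2-LSL library than in any control.

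Odc1, Srm and Sms, the enzymes that make polyamines, were lower. Of the 6 measurable genes other than Arg1 and Slc14a1, 4 fell (Odc1, Azin1, Srm and Sms), 0 rose, and Arg2 and Sat1 did not pass the test. Among all genes tested, 40.6% passed, and since the 10 genes were chosen with this contrast in view nothing is read from the count. The median log2 fold change of the 6 was -0.58, against -0.05 over all genes tested.

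Odc1 (chromosome 12, 17544794 to 17551505, plus strand), the first and rate-limiting step, stood at 43.2, 42.9 and 49.6 FPKM in controls. Foxl2-LSL libraries 1 to 4 had 22.0, 24.2, 18.3 and 21.3 FPKM, and the groups were well apart. Mean FPKM was 2.11-fold lower, a log2 fold change of -1.05 (SE 0.10; adjusted p = 0.000492 in limma).

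Azin1 (chromosome 15, 38487427 to 38519266, minus strand), which protects the Odc1 product from antizyme, stood at 24.5, 28.7 and 27.6 FPKM in controls and 17.3, 21.2, 15.7 and 19.2 FPKM in Foxl2-LSL libraries. All 4 values were below all 3 controls. The log2 fold change was -0.53 (SE 0.11; adjusted p = 0.00753 in limma). Its log2 fold change was smaller in size than that of Odc1, and the ratio of Odc1 to Azin1 within a library averaged 1.69 ± 0.166 (controls, SD, n = 3) and 1.17 ± 0.0707 (Foxl2-LSL, SD, n = 4). Those ratios, chosen after their values were seen, did not overlap (two-sided exact permutation p = 0.0571). With 3 against 4 libraries this is the smallest p that the test can give, so no ratio can pass 0.05.

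Srm (chromosome 4, 148591503 to 148594993, plus strand), which makes spermidine, showed the largest fall of the 4. It stood at 32.2, 48.3 and 51.5 FPKM in controls, and Foxl2-LSL libraries 1 to 4 had 18.8, 14.5, 13.2 and 17.8 FPKM. The lowest control, number 1, was still above every Foxl2-LSL library. Mean FPKM was 2.74-fold lower, a log2 fold change of -1.38 (SE 0.18; adjusted p = 0.00138 in limma).

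Sms (chromosome X, 157443855 to 157492287, minus strand), which makes spermine, changed least of the 4 that fell. It stood at 6.97, 5.99 and 6.35 FPKM in controls and 4.79, 5.05, 4.89 and 4.83 FPKM in Foxl2-LSL libraries, a log2 fold change of -0.33 (SE 0.07; adjusted p = 0.00963 in limma). Sms relative to Srm averaged 0.155 ± 0.0534 in controls (SD, n = 3) and 0.311 ± 0.0574 in the other group (SD, n = 4). The ratios did not overlap (two-sided exact permutation p = 0.0571). As Srm fell far more than Sms, this p restates the fall of Srm, and nothing further is read from it.

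Sat1 (chromosome X, 155213132 to 155216449, minus strand) was the most abundant of the 10 transcripts per length in controls. It stood at 98.1, 77.8 and 96.3 FPKM in controls, and Foxl2-LSL libraries 1 to 4 had 116, 101, 95.6 and 99.5 FPKM. The groups overlapped, and the log2 fold change of 0.18 (SE 0.11) did not pass the test (adjusted p = 0.200 in limma). Relative to spermidine synthase, Sat1 averaged 2.17 ± 0.762 in controls (SD, n = 3) and 6.49 ± 0.770 in the other group (SD, n = 4). These ratios did not overlap either (two-sided exact permutation p = 0.0571). As Sat1 overlapped between the groups and Srm did not, this p too restates the fall of Srm, and nothing further is read from it. Adjusted by Benjamini and Hochberg over the 6 ratios tested, each permutation p of 0.0571 became 0.0857.

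Between the groups, genes of the cell cycle were lower in Foxl2-LSL libraries, as were Odc1, Azin1, Srm and Sms. All 9 proliferation markers examined fell in limma, Mki67 among them. Bub1 passed the filter through the controls only, and without it 8 of 8 fell. The summed level of the 9 was 95.3 to 226 FPKM in controls and 12.5 to 37.8 FPKM in Foxl2-LSL libraries. Within the groups the orders mostly did not match, and several ran the other way. Control 4 had the lowest summed proliferation level of the controls (95.3 FPKM) and the highest Odc1 and Srm. Foxl2-LSL 2 had the lowest of all (12.5 FPKM) and the highest Odc1, Azin1 and Sms of its group. Foxl2-LSL 1, with the highest sum of its group (37.8 FPKM), had the highest Srm but the lowest Sms of it. Control 1, with the highest sum of all (226 FPKM), had the highest Sms but the lowest Azin1 and Srm of the controls. Myc, a transcription factor known to activate Odc1, fell from 29.8 ± 9.12 to 18.9 ± 2.19 FPKM (log2 fold change -0.60; adjusted p = 0.0363 in limma). The part of proliferation or Myc in the fall of the polyamine enzymes was not tested.

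RefSeq promoter windows (GRCm38.p6) were on hand for 5 of the 10 genes: Amd1, Oaz1, Odc1, Sms and Sat1. The stretches before Odc1 and Sms are shown because both genes fell. Capitals mark CACGTG, the E-box bound by MYC and MAX, and GGGCGG, the GC box, on either strand. The Odc1 stretch, chr12:17544623-17544793 on the plus strand, ends where the GENCODE gene begins, and the Sms stretch, chrX:157492288-157492537 on the minus strand, ends at the more upstream of its 2 RefSeq starts:

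Odc1: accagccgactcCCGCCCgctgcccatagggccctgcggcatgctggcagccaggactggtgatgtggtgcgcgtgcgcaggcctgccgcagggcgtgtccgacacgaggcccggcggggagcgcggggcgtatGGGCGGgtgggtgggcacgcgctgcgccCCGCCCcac

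Sms: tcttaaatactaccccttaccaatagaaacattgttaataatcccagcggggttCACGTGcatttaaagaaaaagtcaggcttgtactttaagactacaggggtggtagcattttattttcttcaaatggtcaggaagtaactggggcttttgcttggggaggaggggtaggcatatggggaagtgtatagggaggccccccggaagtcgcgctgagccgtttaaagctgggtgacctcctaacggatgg

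The Sms stretch holds 1 E-box, a motif found in 6.02% of the 32851 windows of 250 bases before a start. No E-box lies in the 250-base windows of Odc1, Sat1, Oaz1 or Amd1, or in that of the other Sms start. Bases after the RefSeq starts, introns included, were not searched, so E-boxes there would not be seen. Odc1 has 4 GC boxes in its 250 bases, 3 of them in the stretch shown, and 32.7% of all windows hold at least 1. On either strand, a forkhead core, TGTTTAC, and GTCAAGG, an element reported for FOXL2, occurred in 3.17% and 2.75% of all windows and in none of these 6. A match describes the letters only.

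The wider pathway was read from 6 lists with 59 further genes, and 45 had enough signal for a test. In limma 24 passed, 9 higher and 15 lower, beside 40.6% over all genes (16.7% higher and 23.9% lower). The same shares stand beside the counts of each list below, and nothing is read from a count alone. Without the 3 genes that passed the filter through 1 group only (Aqp3, Ddah1 and Eif5a2), 21 of 42 passed, 8 higher and 13 lower. The median log2 fold change was -0.16, against -0.05 over all genes tested.

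Among genes that bring arginine into cells or use it otherwise, 5 of 12 tested fell and 1 rose. Gatm, which uses arginine to start creatine synthesis, fell from a mean of 18.9 ± 0.630 FPKM (SD, n = 3) to one of 6.09 ± 0.562 FPKM (SD, n = 4), a log2 difference of -1.49 (SE 0.08, adjusted p = 9.66e-05 in limma). Slc7a6, a subunit of an amino acid exchanger, fell from 9.17 ± 0.214 to 3.90 ± 0.358 FPKM, and Ddah1, which clears methylated arginines, from 2.79 ± 1.73 to 0.679 ± 0.126 FPKM. Ddah1 passed the filter through the controls only, and its log2 fold change of -1.08 was -0.74 without control 4. Nos3, the endothelial nitric oxide synthase, and Slc7a2, a cationic amino acid transporter, fell by 0.99 and 0.92 on the log2 scale. Slc7a7 rose by 0.35. Beside Nos3, 4 of 6 endothelial markers fell (23.9% over all genes), Cldn5 rose and Tek did not pass the test. Their summed level was 111 to 145 FPKM in controls and 90.7 to 106 FPKM in Foxl2-LSL libraries. The part of endothelial cells in the fall of Nos3 was not tested.

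Of the urea cycle enzymes, Otc and Cps1 were below 0.03 FPKM in every library. Asl, which releases arginine from argininosuccinate, stood at 12.95, 19.2 and 53.8 FPKM in controls, and Foxl2-LSL libraries 1 to 4 had 10.96, 13.002, 12.8 and 11.01 FPKM. Its groups overlapped and control 4 was far above the rest (log2 fold change -0.95; adjusted p = 0.0968 in limma). Ass1 was listed at or near 0 FPKM in all libraries, and like Oaz1 it shares much of its sequence with a copy (38.9% of its windows of 100 bases). Of 7 tested genes that handle ornithine and its path to proline and glutamate, 3 fell and 1 rose. Aldh18a1, which feeds ornithine and proline synthesis, fell from 23.9 ± 3.31 to 13.7 ± 0.926 FPKM (log2 fold change -0.76). Slc25a15, the mitochondrial ornithine carrier, fell from 5.89 ± 0.195 to 4.09 ± 0.286 FPKM (-0.44). Pycr1, a step of proline synthesis, had a log2 fold change of -0.69 (adjusted p = 0.0294 in limma). Its call was lost in 8 of 16 alternatives, among them the fits without control 2, control 4 or Foxl2-LSL 2, 3 or 4. The fit without Foxl2-LSL 3 appears more than once in that count. Oat, which joins ornithine to glutamate, was abundant in both groups, at 84.3 ± 13.4 and 101 ± 6.05 FPKM (adjusted p = 0.0938 in limma).

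Of the other urea-permeable proteins, Aqp3, a glycerol- and urea-permeable aquaporin, alone reached the filter. It stood at 0.130 ± 0.0561 FPKM in controls and 2.08 ± 0.760 FPKM in Foxl2-LSL libraries (log2 fold change 1.41). As it passed the filter through the latter only, its values are a description. Its level remained far under that of Slc14a1.

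In polyamine regulation, breakdown and transport, 5 of 12 tested genes rose and 3 fell. Azin2, another antizyme inhibitor, rose from 2.65 ± 0.474 to 5.18 ± 0.673 FPKM (0.76 on the log2 scale, SE 0.13; adjusted p = 0.00297 in limma), opposite to Azin1. The oxidases of the pathway split. Smox, which oxidizes spermine, fell from 34.3 ± 6.15 to 19.6 ± 0.913 FPKM (log2 fold change -0.76), while Paox, which oxidizes acetylated polyamines, rose from 12.2 ± 2.67 to 19.99 ± 2.69 FPKM (0.68). Smox relative to Paox averaged 2.88 ± 0.713 in controls (SD, n = 3) and 0.992 ± 0.138 in the other group (SD, n = 4), without overlap (two-sided exact permutation p = 0.0571). The ratio was chosen after its values were seen. As each gene alone set the groups apart, in opposite directions, this p was fixed in advance and nothing is read from it. Slc22a3, a transporter of organic cations, had a log2 fold change of 0.82 (adjusted p = 0.0189 in limma), a call lost without control 2 or Foxl2-LSL 3. Max, the partner of MYC, rose by 0.32, Slc18b1 rose by 0.35 and Atp13a3, a polyamine transporter, fell by 0.46 on the log2 scale.

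The genes downstream of spermidine and of methylthioadenosine, the by-product of both synthases, mostly held or fell. Eif5a, the translation factor that carries hypusine made from spermidine, fell from 236 ± 15.0 to 159 ± 26.2 FPKM (log2 fold change -0.58; adjusted p = 0.0121 in limma), and Eif5a2, which passed the filter through the controls only, by 0.50. The enzymes that make hypusine, Dhps and Dohh, did not pass the test. Mtap, which recovers methylthioadenosine, fell from 19.1 ± 1.26 to 12.8 ± 0.568 FPKM (-0.54), and Ahcy from 13.7 ± 2.51 to 8.32 ± 0.838 FPKM (-0.65), with 72.1% of its windows of 100 bases shared with copies. Of 9 tested salvage and methionine cycle genes, these 2 fell and Adi1 rose.

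**Figure D3:**
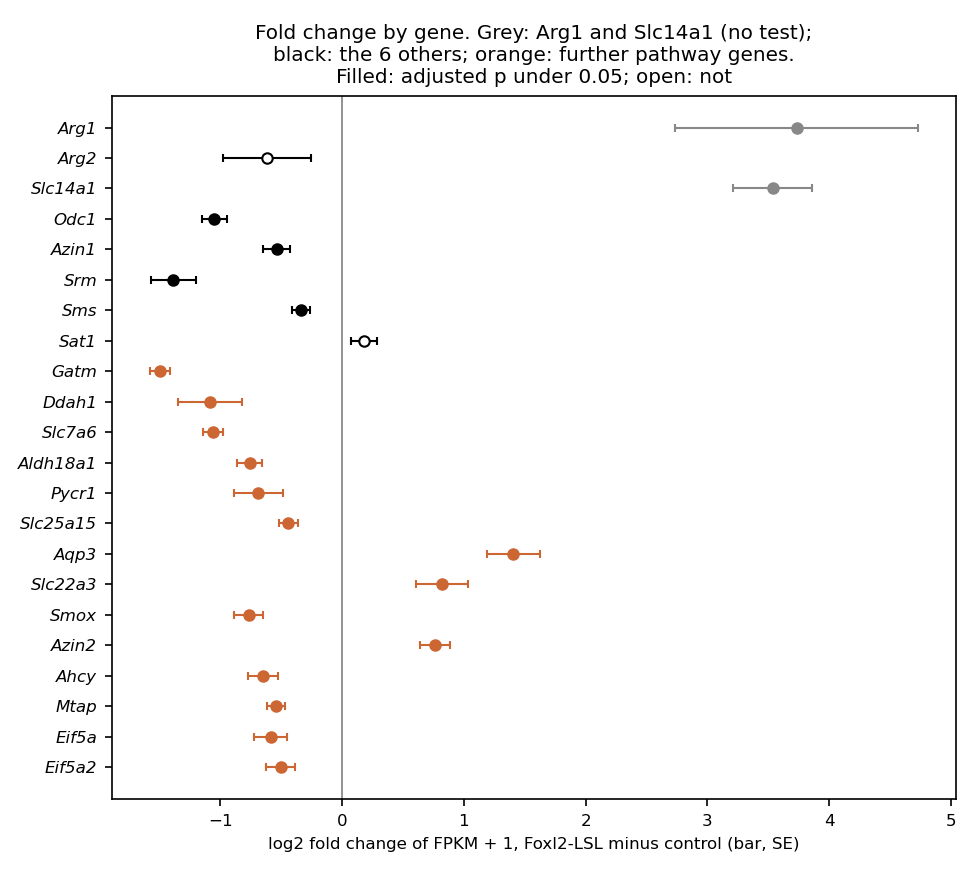
Points show log2 fold changes of FPKM + 1 (Foxl2-LSL minus control) with their standard errors for the 8 measurable genes and the further pathway genes named by rule. Arg1 (3.73) and Slc14a1 (3.54) lie to the right, while Odc1 (-1.05), Srm (-1.38) and Gatm (-1.49) lie to the left.

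The genes whose profile over the 7 libraries was nearest to that of Arg1 and of Slc14a1 were found by the root-mean-square difference of gene-centred log2(FPKM + 1). For Arg1 they were Prap1 (0.38), Fam3b (0.81), Apobec2 (0.87), Lypd2 (0.88) and Lrmp (0.97). In controls Prap1 stood at 41.9, 53.0 and 23.6 FPKM, and Foxl2-LSL libraries 1 to 4 had 2023, 122, 360 and 1474 FPKM. In all 5 genes, Foxl2-LSL libraries 1 and 4 were above libraries 2 and 3, as for Arg1. For Slc14a1 they were Fam213a (0.28), Ccl11 (0.32), Lrrc71 (0.33), Slc34a2 (0.36) and Klk1b21 (0.40), which varied less among the Foxl2-LSL libraries (highest over lowest at most 1.82, against at least 2.97 in the Arg1 set). Ccl11, the chemokine eotaxin, stood at 2.21, 5.28 and 2.51 FPKM in controls and at 39.6, 33.2, 35.8 and 34.6 FPKM in Foxl2-LSL libraries. In all 5 genes control 2 was the highest control, as for Slc14a1. Such shared orders, and the spread within each set, follow from the choice by profile over these same 7 libraries. Klk1b21 belongs to a family of close kallikrein copies, and its values carry that uncertainty.

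**Figure D4:**
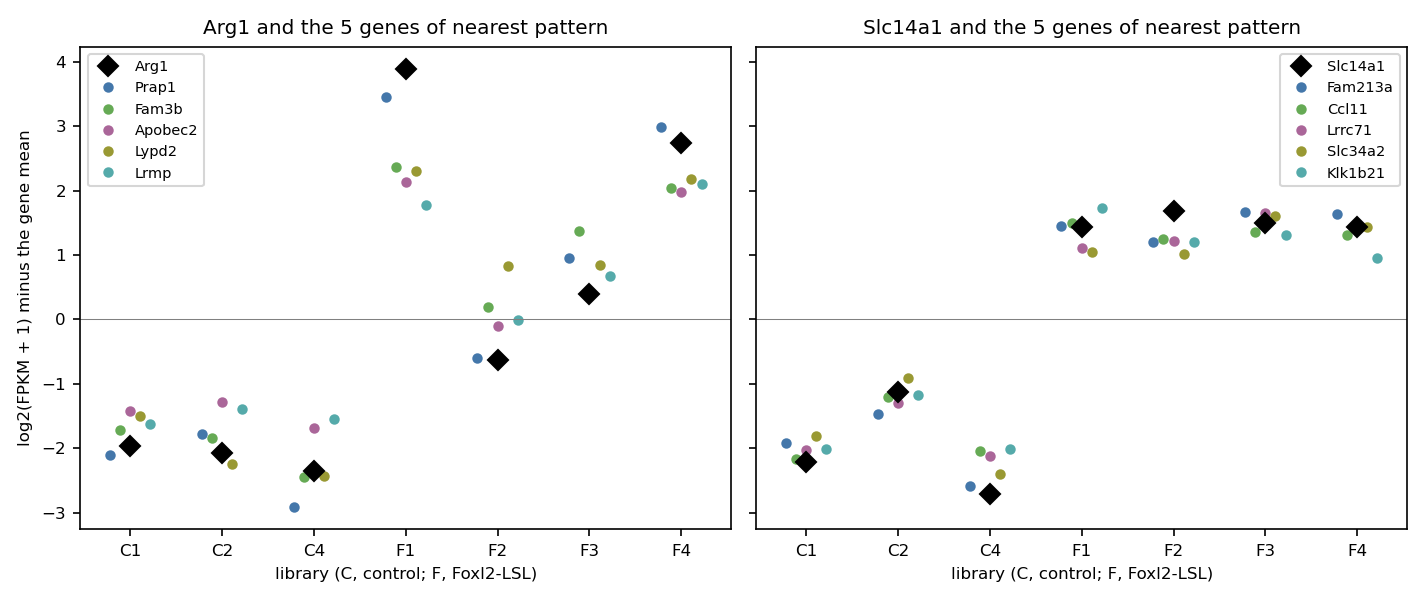
Each point is log2(FPKM + 1) minus the gene's mean over the 7 libraries, for Arg1 (left, black) and Slc14a1 (right, black) and the 5 genes nearest to each in profile (colours). The Arg1 set is high in Foxl2-LSL libraries 1 and 4 (F1, F4), and the Slc14a1 set is level across F1 to F4.

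Markers of other cell types were set beside Arg1 and Slc14a1. Of all genes tested, 16.7% passed as higher and 23.9% as lower, so counts of a few markers are a description. Macrophages can express Arg1. Of 8 tested macrophage markers 3 rose (Csf1r, Mrc1 and Cd163, the last of which passed the filter through the Foxl2-LSL libraries only), and all 9 summed to 134 to 197 FPKM in controls and 192 to 241 FPKM in Foxl2-LSL libraries. Lyz2 made up the largest part of these sums (89.4 of 192 FPKM in Foxl2-LSL 1, the library highest in Arg1 and lowest in the sum within its group). Cd68 had 28.6, 12.7, 20.2 and 32.9 FPKM in Foxl2-LSL 1 to 4, higher in libraries 1 and 4 as Arg1 was, and its groups overlapped. Retnla, at 3.91 to 12.1 FPKM over all libraries, was lowest in Foxl2-LSL 1, and Chil3 was below 0.1 FPKM throughout. Neutrophil markers summed to 2.90 to 4.90 FPKM over all libraries, and 0 of 2 tested passed. The summed markers of simple epithelium, smooth muscle and hepatocytes had the same order of Foxl2-LSL libraries as Arg1. The hepatocyte sum rested mainly on Serpina1a, which made up 4.56 of 4.79 FPKM in Foxl2-LSL 1. Those of simple epithelium summed to 2057, 1304, 1778 and 1916 FPKM in libraries 1 to 4, against 868 to 1670 FPKM in controls, and 3 of 11 rose. Elf3, an epithelial transcription factor among them, had 322, 97.3, 136 and 259 FPKM in the same order of libraries. Stratified epithelium markers, another place where Arg1 is made, summed to 9.08 to 9.41 FPKM in controls and 10.7 to 13.5 FPKM in Foxl2-LSL libraries. Of 3 tested, Krt13 rose, while Krt10 and Lor did not pass the test. Of the genes under the filter, Krt5 was at 0.034 to 0.058 FPKM in controls and at 2.22, 0.669, 0.483 and 2.16 FPKM in Foxl2-LSL 1 to 4, high in libraries 1 and 4 as Arg1 was. Krt1 was at 0.085 to 0.212 FPKM in controls and 1.052 to 1.51 FPKM in the other group, without overlap. Krt4 went the other way, at 0.314 to 0.655 FPKM in controls and 0.021 to 0.069 FPKM in Foxl2-LSL libraries, also without overlap. Krt14 and Trp63 were below 0.5 FPKM. Sprr1b was listed at 0, as was Sprr2a1, which shares 92.5% of its windows of 100 bases with other genes. Hepatocyte markers summed to 0.396 to 1.91 FPKM in controls and 0.640 to 4.79 FPKM in Foxl2-LSL libraries, and the 1 tested, Serpina1a, a gene with close copies, passed the filter through the Foxl2-LSL libraries only. Under the filter, Ttr and Tat had means of 0.728 and 0.0883 FPKM in controls. They were lower in Foxl2-LSL libraries (0.0275 and 0.018 FPKM), without overlap, and Alb, Apoa1, Fgb and Cps1 overlapped between the groups. The part of these cell types in the level of Arg1 was not tested.

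Slc14a1 is known from red blood cells and from the bladder lining. Erythroid markers summed to 0.515 to 1.33 FPKM over all libraries with no gene reaching the filter. The 4 globin genes were listed at 0, but they share most of their sequence with each other, and Slc4a1, the anion exchanger of red blood cells, was at or below 0.01 FPKM. Urothelium markers summed to 30.9 to 50.3 FPKM in controls and 37.2 to 75.1 FPKM in Foxl2-LSL libraries. Of 3 tested, Upk1a rose, from 2.09, 4.90 and 0.944 FPKM in controls to 27.9, 13.3, 18.6 and 15.8 FPKM in Foxl2-LSL libraries. Upk1b had means of 9.05 FPKM in controls and 6.98 FPKM in Foxl2-LSL libraries, and Upk3b 29.1 and 29.9 FPKM. Neither passed the test (adjusted p = 0.410 and 0.902 in limma). Under the filter, Upk2 had means of 0.322 and 1.19 FPKM without overlap, and Upk3a was at or below 0.132 FPKM. The part of urothelium in the level of Slc14a1 was not tested. Uterine gland markers fell (3 of 3 tested), 3 of 7 smooth muscle markers rose, and of 8 stroma markers 3 fell and 1 rose. Over all genes tested the shares were 16.7% higher and 23.9% lower, and nothing is read from these counts.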

How the data were processed

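RNA was extracted with TRIzol and made into Illumina libraries, per the labels' protocols. The authors deposited FPKM values of 24964 genes in a single table, 1 column for each library, beside gene lengths in bases, per the file headers. STAR 2.5.2b, featureCounts 1.5.0-p1 of Subread, DESeq2 1.12.4 and the build mm10 appear in the submitters' processing notes, with no stated role. The annotation, strand use and handling of multiply mapped reads are not given in the sources used here.

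Whole fragments were recovered as multiples of 1 step per library (genes up to 1500 bases and 20 multiples; 100% of 1646 to 1819 low values lay within 0.1 of a whole number). Counting error alone is therefore small for the genes with most fragments. The floor is 3 fragments, 0.0139 to 0.0196 FPKM for Amd1.

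Groups came from the genotype in sample titles. log2(FPKM + 1) of the 13334 genes with a mean of at least 1 FPKM was compared with limma 3.58.1 in R 4.3.3 (intensity trend, no block, Benjamini-Hochberg over all tested genes, threshold 0.05). The step was also tested on simulated data for these genes, drawn with the same spread setting for every gene. Spreads as wide as that of Arg1 were thus not covered. Ratios were compared by a two-sided exact permutation test (35 assignments). The planned ratios of Odc1 and Azin1 to Oaz1 (exact permutation p = 0.229 and 0.914) are not read, since Oaz1 rested on 9 to 25 fragments, and Odc1:Azin1 and Smox:Paox were chosen after their values were seen.

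The 10 genes, the pathway lists and the marker lists were chosen with earlier results of these data known. Named are the 10 genes, Foxl2, up to 3 genes per pathway list (past the threshold, groups apart, largest change) and the 5 nearest profiles to Arg1 and Slc14a1. Other genes were named after their values were seen. Coordinates and copies came from GENCODE M21 on GRCm38, promoter windows from RefSeq on GRCm38.p6. Controls and Foxl2-LSL libraries share the numbers 1, 2 and 4, which no label ties to animals or days. Other steps used Python 3.11.15 (numpy 2.4.6, pandas 2.3.3; figures with matplotlib 3.10.9).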

Additional observations from a re-analysis of the deposited data

Results flagged for a closer look

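Aqp3 was at 0.95 FPKM in Foxl2-LSL 2, apart from the other 3 Foxl2-LSL libraries at 2.59, 2.34 and 2.44 FPKM. The gap was 0.850 of the group's range, above Dixon's critical value of 0.829 for 4 samples. This was the 1 library set apart among 39 such groups examined, where chance sets apart about 1 in 20.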

How the results depend on the processing

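Results were recomputed under 17 alternatives: other scalings, a pseudocount of 0.1, other filters, limma without the trend, limma-voom on recovered fragments, the replicate block, the same 6 libraries without it, and each library left out. Those same 6 libraries are also what is left without Foxl2-LSL 3, so both alternatives are 1 fit. Of 33 named genes tested, 32 kept their direction in all that could be fitted. The exception was Foxl2, at -0.10 without control 1 and -0.01 without Foxl2-LSL 4, and between -0.10 and 0.28 when any 1 library was omitted. Odc1, Azin1 and Srm passed the threshold in all 17, and Sms in all but the replicate block. The log2 fold change of Arg1 ran from 2.97 to 4.79 and that of Slc14a1 from 3.19 to 3.98. With 1 library omitted, 18 to 24 pathway genes and 3853 to 5328 of all genes passed. The log2 differences of the ratios then ran from 1.44 to 1.89 for Sat1:Srm, 0.91 to 1.31 for Sms:Srm, -0.61 to -0.47 for Odc1:Azin1 and -1.65 to -1.33 for Smox:Paox.

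With the replicate block on libraries 1, 2 and 4, 3243 genes and 15 pathway genes passed, against 3975 and 19 in the same 6 libraries with no replicate block, and 6 named genes lost their call (limma, adjusted p): Sms (0.0666), Ddah1 (0.0515), Ahcy (0.0521), Eif5a2 (0.0764), Pycr1 (0.0880) and Slc22a3 (0.0886). Deviations of libraries with the same number correlated at 0.228, -0.0306 and -0.112. With so few libraries this cannot show whether a shared number marks anything in common, and no label says so. Of all genes that passed, 41.1% were higher in Foxl2-LSL libraries, and 50.4% after median centring. Oaz1 and Amd1 could not be judged at 9 to 25 and 0 to 1 fragments.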
